A study of Homo sapiens with 2 samples.

Results

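The genes described here are 10 long noncoding RNA genes that carry small nucleolar RNAs (snoRNAs) in their introns, namely GAS5, ZFAS1, SNHG1, SNHG5, SNHG6, SNHG7, SNHG8, SNHG12, SNHG15 and SNHG16. They were taken by name from the 61806 Ensembl genes of the count table, and all 10 also had a value among the 13924 genes with deposited FPKM. The cells were HEL, a human erythroleukemia line recorded as wild type, grown for 24 h with L1 at 1 µM, a derivative of the cruciferous compound diindolylmethane, or with DMSO at 0.5% as the vehicle. For each condition 1 library was made from poly(A)-captured RNA, so the spread between cultures was not measured and no test was run. All 14 erythroid and megakaryocytic marker genes checked had at least 100 counts in both libraries, whereas 6 of the 8 markers of other lineages were at 0 in both and the highest count among them was 113. The libraries held 32556872 counts for DMSO and 27135647 for L1. Counts were scaled by edgeR's TMM method, and each log2 ratio of L1 over DMSO has an exact 95% interval (Clopper-Pearson) that covers counting error only.

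snoRNAs guide the chemical modification of ribosomal RNA. C/D snoRNAs direct ribose methylation and H/ACA snoRNAs direct pseudouridylation, and most human snoRNAs are cut out of the introns of a host transcript. Many noncoding hosts begin with a terminal oligopyrimidine (TOP) tract, a C followed by a run of pyrimidines, as do the mRNAs of ribosomal proteins. Their spliced RNAs are engaged by ribosomes and are known to be short-lived through nonsense-mediated decay. GAS5 was named for its accumulation in growth-arrested cells and is also known to bind the glucocorticoid receptor.

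The first bases of the hosts are shown because the TOP tract is the sequence feature that this gene class is known for. A tract was counted where a transcript begins with C followed by at least 4 letters that are each C or T, read on the transcribed strand only. In GENCODE release 29 (GRCh38), 8 of the 10 hosts had at least 1 such transcript, and SNHG7 and SNHG15 had none. The same was true of 17.2% of 12270 genes with at least 100 counts and of 11.0% of 672 long noncoding genes among them. Of the 136 transcripts of the hosts 16.9% began this way, against 2.41% of all 206694 transcripts. In RefSeq promoter windows (GRCh38.p14), which matched 8 of the hosts, 3 had the tract exactly at the start, against 4.07% of 35116 windows. The first 30 bases of 1 transcript follow for each of 8 hosts, and those of SNHG1 and SNHG6 are not shown. The 8 were taken from the transcripts with the tract, in capitals, for 6 hosts and from all transcripts for the 2 without it.
GAS5: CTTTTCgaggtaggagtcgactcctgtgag
SNHG16: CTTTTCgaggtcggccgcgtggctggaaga
ZFAS1: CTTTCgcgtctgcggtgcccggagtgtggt
SNHG5: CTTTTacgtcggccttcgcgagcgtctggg
SNHG8: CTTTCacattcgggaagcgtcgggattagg
SNHG12: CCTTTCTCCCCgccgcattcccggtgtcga
SNHG7: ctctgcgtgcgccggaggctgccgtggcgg
SNHG15: ccgccatcctgggccccacgtgttgcctga
The starts of GAS5 (chr1:173867960-173867989, minus strand) and SNHG16 (chr17:76557769-76557798, plus strand) had their first 11 letters in common. SNHG12 (chr1:28581844-28581873, minus strand) had the longest tract among those shown, 11 letters. ZFAS1 starts at chr20:49278642-49278671 and SNHG8 at chr4:118278758-118278787, both on the plus strand. SNHG5 starts at chr6:85678704-85678733, SNHG7 at chr9:136728155-136728184 and SNHG15 at chr7:44986541-44986570, all on the minus strand. Apart from SNHG6, with 3 of 5, a minority of the annotated transcripts began with the tract. It was found in 6 of 29 for GAS5, 3 of 10 for ZFAS1, 3 of 23 for SNHG5, 1 of 25 for SNHG1, 1 of 5 for SNHG8, 4 of 17 for SNHG12 and 2 of 8 for SNHG16. A match to these letters is a description of the annotation, and the position at which transcription began in these cells was not measured.

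The question put to the data was whether the level of these host RNAs differed between the L1 and DMSO libraries. SNHG7 stood apart from the others, at 1.93-fold the DMSO level. The remaining 9 hosts lay between a log2 ratio of -0.28 and 0.23. No host was at least 2-fold higher and none was at least 2-fold lower, both counted with a prior count of 2. Over the 18123 genes with at least 10 counts in 1 library, 7.12% were 2-fold higher or more and 4.83% were 2-fold lower or more. All 10 hosts had at least 100 counts, and over the 12365 genes with that many counts the shares were 3.13% and 2.92%. On the counts of the gene alone, only SNHG7 was past 1.5-fold, 1 of 10 hosts, against 15.6% of these genes and 26.9% of the 739 long noncoding genes among them. With 10 members, a count of 0 or 1 is near these shares and is no result about the list.

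The median log2 ratio of the hosts was 0.06, beside -0.03 for all 12365 genes. Summed over the 10 hosts, there were 30452 counts with DMSO against 27319 with L1, a log2 ratio of 0.06 (95% interval 0.03 to 0.08). Without SNHG7 the summed ratio was 0.026. The counting interval lay above 0 for 3 hosts, below 0 for 3 and included 0 for 4. An interval without 0 was found for 67.1% of the 12365 genes. The counts of hosts are near this share and are no result about the list.

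**Figure D1:**
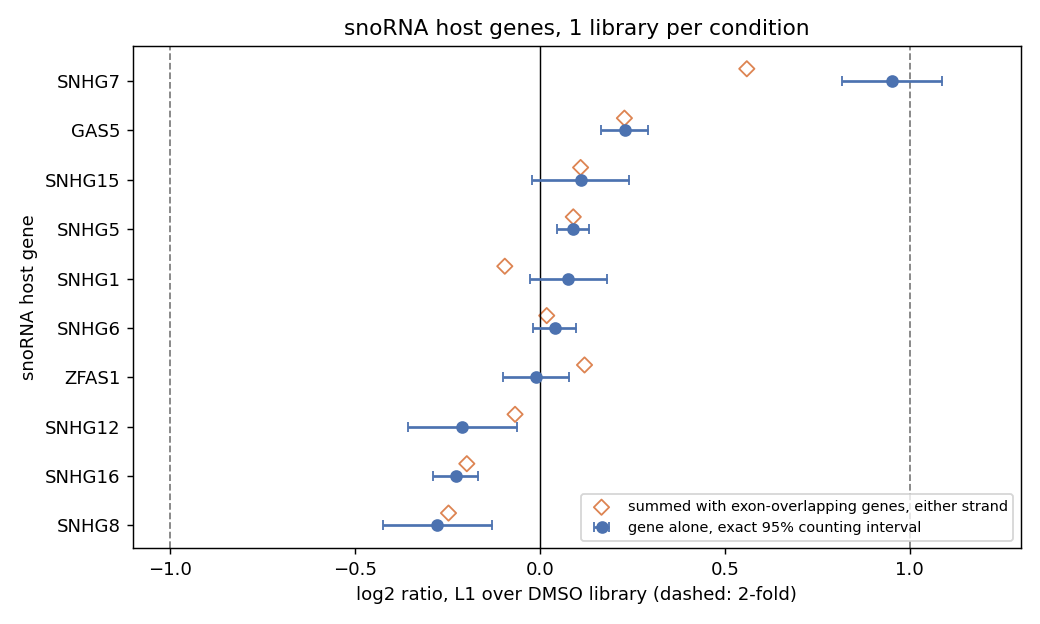
Log2 ratio of the L1 over the DMSO library (x axis) for each snoRNA host gene (y axis), as points with exact 95% counting intervals, 1 library per condition. Open diamonds give the ratio after all counts of exon-overlapping genes on either strand were added, however short the overlap. SNHG7 lies at 0.95 by itself and at 0.56 with its overlapping genes, and the other hosts lie within -0.28 and 0.23.

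Positions of the hosts are those of GENCODE 29 on GRCh38, which types GAS5, SNHG1, SNHG5, SNHG6 and SNHG16 as processed transcripts, ZFAS1, SNHG7 and SNHG12 as antisense and SNHG8 and SNHG15 as intergenic. SNHG7 (ENSG00000233016, chromosome 9, 136721366 to 136728184, minus strand) hosts the H/ACA snoRNAs SNORA17A and SNORA17B. It had 716 counts with DMSO against 1195 with L1, and its FPKM was 4.60 in DMSO and 8.91 in L1. The log2 ratio was 0.95, with an interval from 0.82 to 1.09 that includes 2-fold. The value was 1.00 with total counts as the scaling and 0.92 with DESeq2 size factors. Among the 12365 genes with at least 100 counts, 6.69% lay as far from 0 in either direction. FAM69B, a protein-coding gene on the opposite strand, overlaps 1094 bases of SNHG7 exons. FAM69B itself had 580 counts with DMSO against 462 with L1, a log2 ratio of -0.12 (95% interval -0.29 to 0.06). Whether the counting used strand is not given in the sources used here. With all counts of overlapping genes on both strands added, the log2 ratio of the sum was 0.56 (95% interval 0.46 to 0.66), below 1.5-fold. This sum holds every count of FAM69B, of whose exon length 40.5% overlaps SNHG7. Among the 31-base words of SNHG7, 35.2% were found again in some other gene and 22.7% in FAM69B.

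GAS5 (ENSG00000234741, chromosome 1, 173863900 to 173868882, minus strand) had 4060 counts with DMSO against 4106 with L1, at a log2 ratio of 0.23 (95% interval 0.17 to 0.29), and its FPKM was 25.9 in DMSO and 30.4 in L1. RefSeq places 11 snoRNAs inside GAS5, more than in any other of the 10 hosts. It shares 2.69% of its words with other genes. GAS5 was thus higher in the L1 library by more than counting error, at 1.17-fold. SNHG5, which hosts the SNORD50 pair, had the most counts of the 10, 8847 with DMSO against 8127 with L1. Its log2 ratio was 0.09 (95% interval 0.05 to 0.13). SNHG5 (ENSG00000203875) spans 85660950 to 85678748 on the minus strand of chromosome 6. These are small differences, and with 1 library per condition they cannot be told apart from a difference between cultures.

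The hosts that were lower in the L1 library by more than counting error, on the counts of the gene alone, were SNHG8, SNHG16 and SNHG12. SNHG8 (ENSG00000269893, chromosome 4, 118278709 to 118279823, plus strand), the host of SNORA24, had 903 counts with DMSO against 643 with L1, at a log2 ratio of -0.28 (95% interval -0.42 to -0.13). SNHG16 (ENSG00000163597, chromosome 17, 76557766 to 76565348, plus strand) hosts the SNORD1 family. It had 5126 counts with DMSO against 3777 with L1, and its log2 ratio was -0.23 (95% interval -0.29 to -0.17). The opposite-strand gene AC015802.6 overlaps 1639 bases of SNHG16 exons and had 229 counts with DMSO against 252 with L1. SNHG12 (ENSG00000197989, chromosome 1, 28578538 to 28583132, minus strand), which carries C/D and H/ACA snoRNAs, had 875 counts with DMSO against 653 with L1. Its log2 ratio was -0.21 (95% interval -0.36 to -0.06). TRNAU1AP, on the opposite strand, overlaps 8 bases of SNHG12 exons. It had 862 counts with DMSO against 777 with L1, a log2 ratio of 0.06 (95% interval -0.08 to 0.20). With all counts of overlapping genes on either strand added, the log2 ratio of the sum was -0.067 (95% interval -0.17 to 0.03), which includes 0. This sum holds every count of TRNAU1AP, of whose exon length 0.19% overlaps SNHG12, so it is a ratio of the genes together. SNHG8, SNHG16 and SNHG12 each had at least 1 annotated transcript with the tract, as did GAS5 and SNHG5, which lay above 0. ZFAS1, SNHG1 and SNHG6 also had such a transcript, and their intervals included 0. SNHG7 and SNHG15, the hosts with no such transcript by the minimum run set above, had log2 ratios of 0.95 and 0.11. Other minimum runs were not tried, and a link between the tract and the ratios was not tested.

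For ZFAS1, SNHG1, SNHG6 and SNHG15 the interval included 0. ZFAS1 (ENSG00000177410, chromosome 20, 49278178 to 49295738, plus strand), the host of the SNORD12 family, had 2194 counts with DMSO against 1879 with L1, at a log2 ratio of -0.011 (95% interval -0.10 to 0.08). SNHG1 (ENSG00000255717, chromosome 11, 62851988 to 62855914, minus strand), in which RefSeq places 9 snoRNAs, had 1569 counts with DMSO against 1428 with L1. The log2 ratio of SNHG1 was 0.08 (95% interval -0.03 to 0.18). SNHG6 (ENSG00000245910, chromosome 8, 66921684 to 66926398, minus strand), the host of SNORD87, had 5158 counts with DMSO against 4576 with L1. Its log2 ratio was 0.04 (95% interval -0.02 to 0.10). SNHG15 (ENSG00000232956, chromosome 7, 44983023 to 44986961, minus strand), the host of SNORA9, had 1004 counts with DMSO against 935 with L1, at a log2 ratio of 0.11 (95% interval -0.02 to 0.24). For these 4 hosts a difference was not detectable at this depth on the counts of the gene alone. With all counts of overlapping genes on either strand added, the sum had 0.12 (95% interval 0.05 to 0.19) for ZFAS1 and -0.09 for SNHG1. The sum for ZFAS1 holds every count of the opposite-strand gene ZNFX1, of whose exon length 2.67% overlaps ZFAS1, so it is a ratio of the genes together. In a bulk library, a lower level in every cell and a lower share of expressing cells cannot be told apart.

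The outer annotated starts of GAS5, SNHG1 and ZFAS1 lie within 1000 bases of the start of a protein-coding gene read in the opposite direction. Distances are taken from these outer ends of the GENCODE 29 genes. For GAS5 and ZFAS1 they are not the transcript starts shown above. ZBTB37 starts 800 bases from the outer end of GAS5, inside its annotated span, and had 1488 counts with DMSO against 1280 with L1. Its log2 ratio was -0.0042 (95% interval -0.11 to 0.10), whereas GAS5 had 0.23. SLC3A2, the heavy chain of amino acid transporters, starts 188 bases from SNHG1 and had 3486 counts with DMSO against 3574 with L1. The log2 ratio of SLC3A2 was 0.25 (95% interval 0.18 to 0.32), against 0.08 for SNHG1. ZNFX1, a zinc finger helicase, starts 248 bases from ZFAS1 and had 1169 counts with DMSO against 1290 with L1, at a log2 ratio of 0.36 (95% interval 0.24 to 0.47), against -0.011 for ZFAS1. The intervals of host and neighbour did not overlap for GAS5 with ZBTB37 or for ZFAS1 with ZNFX1, and they touched only at their ends for SNHG1 with SLC3A2. ZNFX1 exons overlap 249 bases of ZFAS1 exons on the opposite strand.

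The level of the hosts, given per length as FPKM, ranged from 4.29 for SNHG8 to 64.2 for SNHG6 in the DMSO library. In DMSO the order from the top was SNHG6, SNHG16, GAS5, SNHG5, SNHG1, ZFAS1, SNHG15, SNHG12, SNHG7 and SNHG8. ZFAS1 (8.30) and SNHG15 (8.01) did not differ beyond counting error there, and neither did SNHG7 (4.60) and SNHG8. In the L1 library the order began with SNHG6 (66.0), GAS5 (30.4) and SNHG16 (23.8). SNHG16 and SNHG5 (23.5) did not differ beyond counting error in L1, nor did SNHG7 (8.91) from SNHG15 (8.65) or SNHG15 from ZFAS1 (8.24). SNHG1 had 12.4 FPKM in DMSO and 13.1 in L1, and SNHG12 had 6.45 in DMSO and 5.58 in L1. SNHG7 stood at rank 9 in DMSO and at rank 6 in L1. In DMSO 8 of the hosts were above the median FPKM of all listed genes, 5.19, and in L1 9 were above the median of 5.11.

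The order of levels rests on the gene length that was used. The lengths behind the FPKM values, set on the scale that gives the median gene its GENCODE 29 exon length, were 12604 bases for SNHG5 and 8315 for ZFAS1. GENCODE 29 has 2806 and 2243 exon bases for these genes. SNHG8 had 6614 against 923, a ratio of 7.17, and SNHG6 had 2527 against 1247. For SNHG12 both lengths were 4266. The ratio was over 2 for 4 of the 10 hosts and for 5.50% of 13734 genes with both lengths. Both lengths were equal within 0.1% for 36.7% of those genes. Exon overlaps given here use GENCODE 29 and need not hold for the gene models behind the deposited values. The same DMSO counts divided by GENCODE 29 lengths gave 99.2 for SNHG5 in place of 22.1. They gave 30.8 for ZFAS1 in place of 8.30 and 30.8 for SNHG8 in place of 4.29. SNHG8, the lowest of the 10 by deposited FPKM, was then at rank 4. These values join counts of the deposited gene models to lengths of other models. For SNHG8, 6614 bases is longer than its whole GENCODE 29 span, so its counts may include reads from outside it. The values show how far the order depends on length and are not levels of the hosts. The length cancels in the ratio of both libraries, so the log2 ratios above do not change with it.

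**Figure D2:**
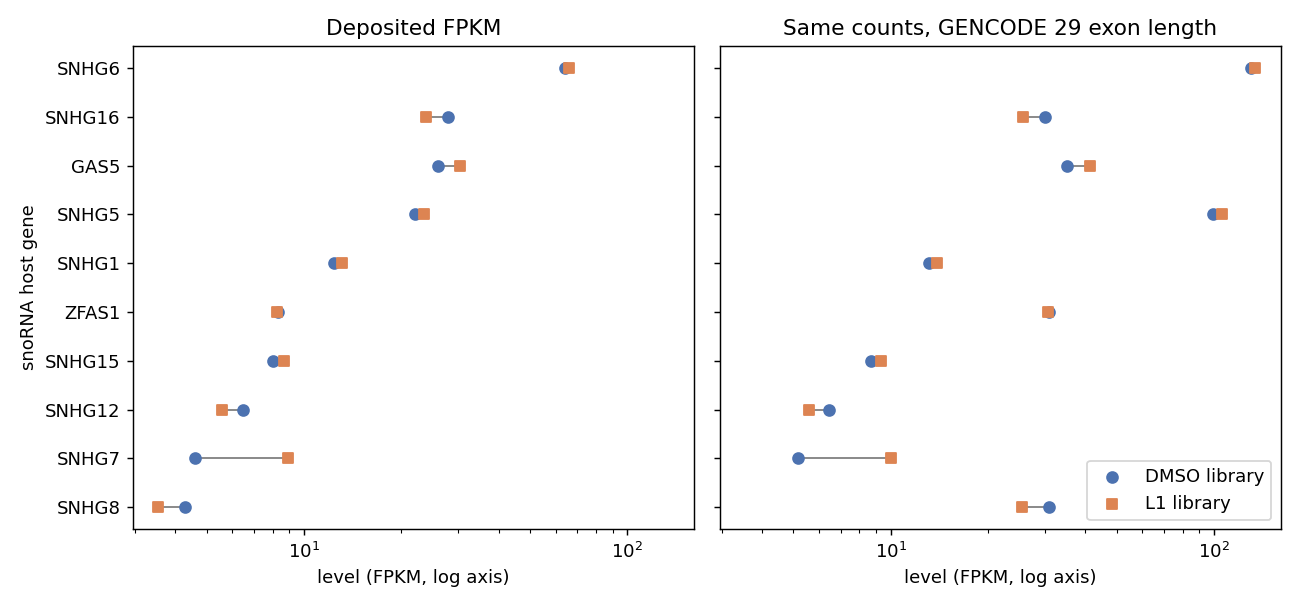
Values of each snoRNA host gene in the DMSO (circles) and L1 (squares) libraries on a log axis, as deposited FPKM (left) and with the same counts divided by GENCODE 29 exon lengths (right). The right panel joins counts of the deposited gene models to lengths of other models, so its values are not levels of the hosts. SNHG5, SNHG8 and ZFAS1 shift to the right between the panels, SNHG8 from 4.29 to 30.8 in DMSO, while the distance between libraries stays the same.

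The snoRNA genes inside the hosts were counted as genes of their own. The count table held 26 snoRNA genes that GENCODE 29 places inside 9 hosts on the same strand. None of the 26 lies in GAS5, in which RefSeq places 11 snoRNAs. Of these, 15 had exactly 1 count in both libraries, 7 had at least 10 counts in 1 library and 4 had other values under 10. The 26 are not all separate loci. SNORA17B and SNORA16A each stand under more than 1 identifier, and RF00560 covers nearly the same bases as SNORA17A. All 15 at 1 count overlapped an annotated exon of the host, as did 22 of the 26. SNORD30 in SNHG1, among the 15, had only 48.6% of its length in a host exon. The 4 outside host exons had between 1 and 19 counts. Over all 942 snoRNA genes of the count table, 11.1% had 1 count in both libraries. The poly(A) capture is not made for mature snoRNAs, which lack a poly(A) tail, so these counts are not levels of mature snoRNA.

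The snoRNA genes with the lowest ratios are shown with SNORD99, whose counts were close in both libraries. Capitals mark the first TGATGA (box C letters) and the last CTGA (box D letters), searched on the snoRNA strand without overlap. TGATGA occurs in 77.3% of 278 C/D snoRNA genes of GENCODE 29 and CTGA in 98.2%.
SNORD22: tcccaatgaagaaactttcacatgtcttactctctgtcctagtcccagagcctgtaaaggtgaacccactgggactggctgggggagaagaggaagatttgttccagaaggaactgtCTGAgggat
SNORD27: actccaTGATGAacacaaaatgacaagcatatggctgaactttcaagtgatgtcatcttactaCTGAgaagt
SNORD12: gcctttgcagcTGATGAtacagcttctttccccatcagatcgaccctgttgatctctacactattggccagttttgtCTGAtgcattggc
SNORD99: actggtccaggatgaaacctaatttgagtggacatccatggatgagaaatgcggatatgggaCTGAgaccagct
SNORD22 (chr11:62852910-62853035) and SNORD27 (chr11:62855012-62855083) lie in SNHG1 on the minus strand. SNORD22 had 168 counts with DMSO against 1 with L1, a log2 ratio of -7.18 (95% interval -12.5 to -4.68). SNORD27 had 34 counts with DMSO against 1 with L1, a log2 ratio of -4.87 (95% interval -10.2 to -2.30). A value of exactly 1, as in L1 here, was found in both libraries for 15 of the 26 genes, and whether it is an ordinary count is not given in the sources used here, so these ratios, and that of SNORD12, hold only if it is. Both genes lie whole within annotated SNHG1 exons, and with the overlapping genes of its own strand added the log2 ratio of SNHG1 was -0.09, with an interval that includes 0.
SNORD12 (chr20:49280683-49280772, plus strand), in ZFAS1, had 17 counts with DMSO against 1 with L1, a log2 ratio of -3.87 (95% interval -9.26 to -1.20). SNORD99 (chr1:28578749-28578822, minus strand), in SNHG12, lies outside the annotated host exons. It had 19 counts with DMSO against 18 with L1, a log2 ratio of 0.14 (95% interval -0.88 to 1.14).

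Among the remaining snoRNA genes with at least 10 counts, SNORD87 in SNHG6 had 158 counts with DMSO against 71 with L1. Its log2 ratio was -0.94 (95% interval -1.37 to -0.53), while SNHG6 had 0.04. SNORA24 in SNHG8 had 24 counts with DMSO against 31 with L1, and RF00560 in SNHG7 had 21 against 16. SNORA17A, at nearly the same bases as RF00560, had 1 count in both libraries. The intervals of SNORA24 and RF00560 included 0. Reads over a snoRNA inside a host exon can be given to either gene, and how they were divided is not given in the sources used here.

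**Figure D3:**
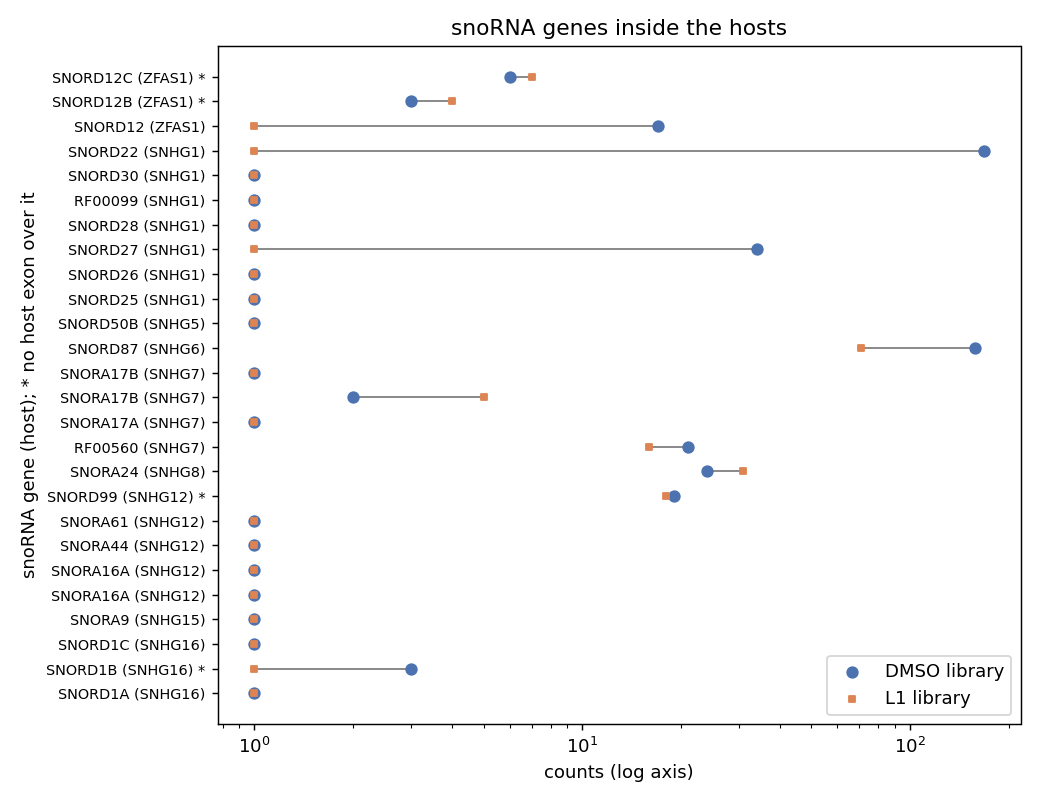
Counts (x axis, log) of the 26 snoRNA genes inside the hosts in the DMSO (circles) and L1 (squares) libraries, with the host in brackets and an asterisk where no host exon overlaps the gene. SNORD22, SNORD27 and SNORD12 are at 1 count in L1, and 15 genes sit at 1 count in both libraries.

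The other genes of the same pathway were described from lists, of which some genes stand in more than 1. The median log2 ratio of all 18123 genes with at least 10 counts was -0.004, and the share of them on each side of 0 was not counted. The further noncoding snoRNA hosts numbered 19, of which 17 had enough counts, with a median log2 ratio of -0.04 that was 0.011 with total counts as the scaling. Of the 17, 1 gene was 2-fold lower or more and 1 was 2-fold higher or more, against 4.83% and 7.12% of all genes with at least 10 counts, and counts this small are no result about the list. EPB41L4A-AS1, the host of SNORA13, had 852 counts with DMSO against 214 with L1, a log2 ratio of -1.78 (95% interval -2.00 to -1.56). SNHG30 had 242 counts with DMSO against 456 with L1, a log2 ratio of 1.13 (95% interval 0.90 to 1.36). SNHG14, a host at the imprinted Prader-Willi locus, had -0.31 and SNHG3 had -0.30. EPB41L4A-AS1 was farther from 0 than any of the 10 hosts, whereas the intervals of SNHG30 and SNHG7 overlapped.

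Of the 24 protein-coding hosts of snoRNAs, none was past 2-fold in either direction, and their median log2 ratio was -0.07. PPAN, a ribosome assembly factor, had the lowest value, -0.89, from 2474 counts in DMSO to 1151 in L1. The helicase EIF4A1 had -0.59 and the elongation factor EEF2 had -0.33. The list spread to both sides, with 15 genes below 0 and 9 above, and the chaperone HSPA8 had 0.82, from 63271 counts with DMSO to 96639 with L1. The 17 proteins that form or assemble snoRNPs also held no gene past 2-fold, with a median of 0.07. RUVBL1, an ATPase of snoRNP assembly, had 0.41, the assembly factor ZNHIT3 had 0.36 and the C/D core protein NOP56 had 0.24. In this list 10 genes lay above 0 and 7 below, and SNU13, also a C/D core protein, had -0.38 (95% interval -0.47 to -0.30). Raw counts of the C/D methyltransferase FBL were 8424 in DMSO and 7133 in L1, and those of the pseudouridine synthase DKC1 were 6238 and 6048. After scaling, FBL lay at -0.03 on the log2 scale, and its 95% counting interval, from -0.07 to 0.02, included 0. DKC1 lay above 0 after scaling, at 0.17, with its interval running from 0.12 to 0.22.

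The 16 factors of nonsense-mediated decay had a median log2 ratio of 0.06 and no gene past 2-fold. The helicase UPF1, the central factor of the pathway, had 3676 counts with DMSO against 3967 with L1, a log2 ratio of 0.32 (95% interval 0.26 to 0.39). Its partner UPF2 had 0.31 and the decapping cofactor PNRC2 had 0.24. The 21 genes of the list of TOP mRNAs outside the ribosome, which included the TOP-binding protein LARP1, had a median of -0.17, with 18 genes below 0 and 3 above. EIF4B, an initiation factor, had -0.51, the poly(A)-binding protein PABPC4 had -0.46 and EEF2 had -0.33. LARP1, which binds the cap and tract of TOP mRNAs, was the 1 gene of the list past 2-fold. It had 6817 counts with DMSO against 16438 with L1, a log2 ratio of 1.48 (95% interval 1.44 to 1.52). At 0.06, the median of the 10 hosts was close to that of the decay factors and above that of the TOP list, and the difference was not tested.

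**Figure D4:**
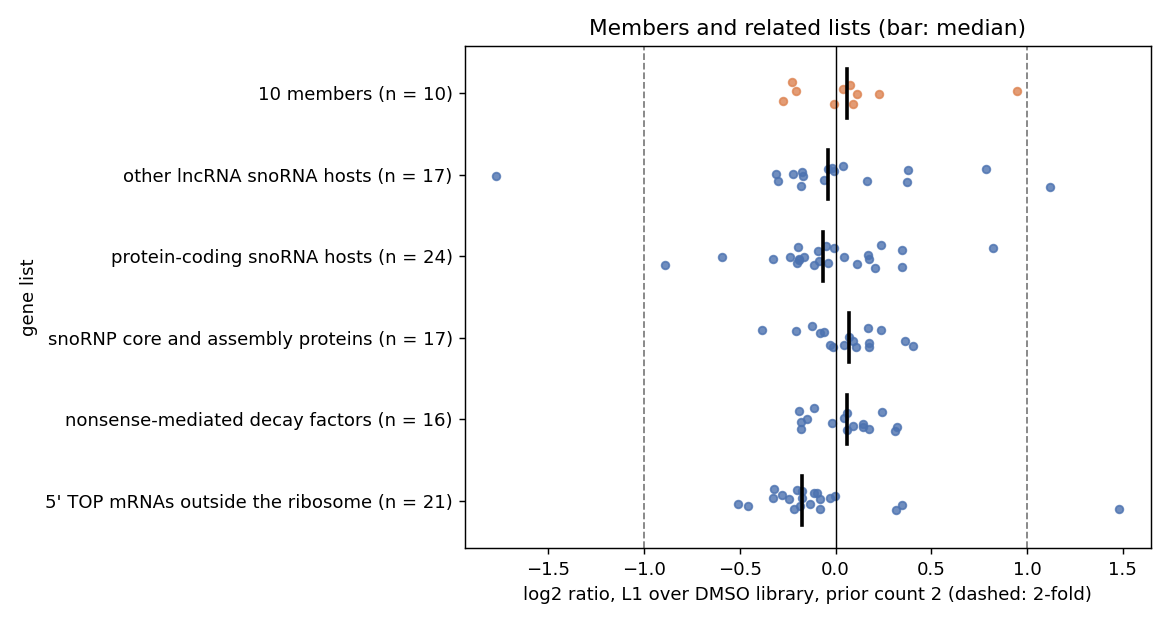
Log2 ratio of the L1 over the DMSO library with a prior count of 2 (x axis) for the 10 snoRNA host genes and 5 related gene lists (y axis), 1 point per gene, with bars at the medians and dashed lines at 2-fold. The hosts have a median of 0.06 and the TOP list one of -0.17, in which LARP1 is the point at 1.48.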

How the data were processed

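RNA of HEL cells treated with L1 or DMSO was sequenced in 1 library per condition. Per the labels, the submitters' processing notes name fastp 2.0, HISAT2 2.1.0, StringTie and the build hg38. The counting program, annotation release and strand setting are not given in the sources used here. The authors deposited raw counts per Ensembl gene, without normalization, and FPKM values for 13924 genes, whose library ratio of 1.16 equals that of TMM. From each FPKM table, 1 broken line without a value was left out.

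TMM factors came from edgeR 4.0.16 and other size factors from DESeq2 1.42.0 in R 4.3.3. The other steps used Python 3.11.15, numpy 2.4.6, pandas 2.3.3 and scipy 1.17.1. Ratios of single genes used no prior count and have exact 95% Clopper-Pearson intervals of the split of counts. Lists used a prior count of 2 and genes with at least 10 counts in 1 library. Intervals cover counting error only. The scripts were tested on simulated data. GENCODE 29 holds 58254 of the 61806 identifiers.

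The 10 hosts and the 5 lists were chosen with earlier results of these data known. Named were all hosts; in each list, among genes with at least 100 counts, the 3 most extreme on the side of its median and all past 2-fold; snoRNA genes with at least 10 counts; and overlapping genes with at least 100 counts. Genes with starts within 1000 bases of the outer annotated start of a host, and FBL, DKC1, HSPA8 and SNU13, were added after values were seen. The alternatives were other scalings, FPKM with pseudocounts of 1 and 0.1, prior counts of 0.5 and 5, other minimum counts and sums with overlapping genes.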

Additional observations from a re-analysis of the deposited data

How the results depend on the processing

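Of 69 values of the 10 hosts under the alternatives, 64 stayed within the host's counting interval and none reversed a sign that the interval had fixed. The others were SNHG5 with total counts (0.14), SNHG7 (0.56) and ZFAS1 (0.12) with overlapping genes of either strand, and SNHG1 (-0.09) with those of its own or of either strand. The sum of SNHG12 with genes of either strand had -0.067, and its interval included 0. The sums for SNHG12 and ZFAS1 hold all counts of TRNAU1AP and ZNFX1, of whose exon lengths 0.19% and 2.67% overlap the host. The numbers of hosts past 2-fold and 1.5-fold and their median stayed within the limits under the other scalings, pseudocounts, prior counts and minimum counts. They were not recounted with overlapping genes, where SNHG7 is below 1.5-fold. Without a prior count SNHG7 is at 1.002 with total counts, just past 2-fold. The count of 0 hosts 2-fold higher under that scaling thus rests on the prior count. The summed log2 ratio of the hosts was 0.11 with total counts, 0.095 with upper quartile scaling and 0.025 with DESeq2 size factors, and 0.026 without SNHG7, an alternative chosen after seeing the data, as was the GENCODE 29 length. The median of protein-coding hosts was -0.017 with total counts. That of the TOP list was -0.12 with total counts, -0.13 with upper quartile scaling and -0.20 with DESeq2 size factors. Another scaling moves every gene by one shared amount, which accounts for the shifts under it. No paired analysis was possible because only 1 library was made with L1 and 1 with DMSO. Most snoRNA genes inside the hosts had fewer than 10 counts, and the cause was not tested.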

Other observations

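Over the whole table, 68 annotated snoRNA genes had at least 10 counts in 1 library. Their median log2 ratio was -0.07. Of the 68, 13 were 2-fold higher or more in the L1 library and 5 were 2-fold lower or more. The shares were 7.12% and 4.83% of all genes with at least 10 counts, and 3.13% and 2.92% of those with at least 100. These shares thus depend on depth, and no genes matched to the depth of the 68 were taken. The counts of 13 and 5 are therefore no result about snoRNA genes. Exactly 1 count in both libraries was found for 611 genes, of which 105 were snoRNA genes and 15 were protein-coding, out of 942 snoRNA and 19838 protein-coding genes. The part of the counting in this pattern was not tested.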
